A study of Rattus norvegicus with 16 samples.

Results

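Hepatocytes keep their identity through a small set of transcription factors, and 9 of their genes (Hnf4a, Foxa1, Foxa2, Foxa3, Cebpa, Cebpb, Onecut1, Prox1 and Nr5a2) were followed here in rat liver. They were taken by symbol from the expression tables, where all 9 of them are among the 17168 genes listed, and all 9 passed the filter on low counts that left 11162 genes. The livers came from Sprague Dawley rats, labelled wild type (WT) or tspo -/- (KO). Tspo encodes the translocator protein, a cholesterol-binding protein of the outer mitochondrial membrane. From 12 weeks of age the animals received either chow or a diet without methionine and choline (MCD) for 8 weeks, and liver was taken at 20 weeks. The design text gives the diet as a way to induce steatohepatitis, a fatty and inflamed liver. The 4 groups, WT-CHOW, KO-CHOW, WT-MCD and KO-MCD, have 4 libraries each, numbered 1 to 4 in their labels. The sources used here do not give which part of Tspo was removed, the animals' sex or whether each library is a separate animal, so p-values measure the spread between libraries, which may be technical. The series title speaks of mice, while every organism label is rat.

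HNF4A is a nuclear receptor that binds the promoters of a large share of the genes that make a hepatocyte, and the FOXA proteins are pioneer factors that open closed chromatin in early liver and gut. C/EBP alpha keeps mature hepatocytes quiescent and metabolically active, while its relative C/EBP beta is switched on in the acute-phase response and in regeneration. ONECUT1 (also called HNF6) acts in hepatocyte and bile duct development, PROX1 is a homeodomain protein that can act as a corepressor of HNF4A and NR5A2, and NR5A2 (also called LRH-1) is a nuclear receptor of bile acid and cholesterol genes. These factors bind one another's genes, so the set is often described as a network.

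Promoter sequence shows how unlike the genes are at their starts. The RefSeq promoter table (build GRCr8, a later assembly than the rn6 named for the counts) holds 6 of the 9 genes, with 2 start sites for Hnf4a that lie 35616 bases apart. Foxa1, Onecut1 and Prox1 have no entry there. The 250 bases before the start are shown for Hnf4a because its gene is read from both starts and the counts per gene cannot separate them. Cebpa and Cebpb are shown as the related pair whose ratio is followed, and Nr5a2 as the gene called higher on MCD in both genotypes. Capitals mark the letters TATAAA, or those of CCAAT, printed as its reverse complement where it lies on the other strand.
Hnf4a, first start (chr3:172605970-172606219, plus strand): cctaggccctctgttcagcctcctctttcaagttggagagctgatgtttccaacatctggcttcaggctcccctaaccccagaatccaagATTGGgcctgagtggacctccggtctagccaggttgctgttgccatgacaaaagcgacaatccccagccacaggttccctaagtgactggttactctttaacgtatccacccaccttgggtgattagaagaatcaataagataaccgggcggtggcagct
Hnf4a, second start (chr3:172641586-172641835, plus strand): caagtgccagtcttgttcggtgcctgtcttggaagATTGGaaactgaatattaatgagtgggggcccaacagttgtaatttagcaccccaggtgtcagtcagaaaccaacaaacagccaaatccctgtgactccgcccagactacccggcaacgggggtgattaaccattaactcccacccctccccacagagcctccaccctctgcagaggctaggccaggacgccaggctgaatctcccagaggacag
Cebpa (chr1:96896334-96896583, plus strand): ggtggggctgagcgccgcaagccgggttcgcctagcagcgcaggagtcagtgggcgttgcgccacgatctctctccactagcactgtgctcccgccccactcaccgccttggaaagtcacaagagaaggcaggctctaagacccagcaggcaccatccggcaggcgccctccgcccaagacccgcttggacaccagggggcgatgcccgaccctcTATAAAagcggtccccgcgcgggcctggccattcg
Cebpb (chr3:176816755-176817004, plus strand): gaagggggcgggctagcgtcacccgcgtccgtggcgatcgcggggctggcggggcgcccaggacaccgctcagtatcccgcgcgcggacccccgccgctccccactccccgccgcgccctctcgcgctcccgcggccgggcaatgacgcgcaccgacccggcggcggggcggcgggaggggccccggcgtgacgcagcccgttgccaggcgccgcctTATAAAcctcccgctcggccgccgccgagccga
Nr5a2 (chr13:50984939-50985188, minus strand): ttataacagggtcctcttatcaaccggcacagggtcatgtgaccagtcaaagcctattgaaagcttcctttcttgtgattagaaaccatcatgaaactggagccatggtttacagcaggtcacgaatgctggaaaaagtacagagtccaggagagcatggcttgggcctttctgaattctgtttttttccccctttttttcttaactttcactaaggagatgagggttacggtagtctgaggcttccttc
Both strands were searched for TATAAA, for CCAAT and for the letters CAAAGTCCA (HNF4), TGTTTAC (FOX), TTGCNNAA (C/EBP), GTTAATNAT (HNF1), ATCGAT (ONECUT), CAAGGTCA (NR5A) and TGACGTCA (CRE). TATAAA stood at positions -35 to -30 before the Cebpa start and at -33 to -28 before the Cebpb start. It was also found before the Foxa2 and Foxa3 starts, at -205 to -200 and -82 to -77, so 4 of the 7 promoters held it, against 12.9% of all 33469 promoters in the table. CCAAT was in 3 of the 7, both Hnf4a starts and Foxa3, against 34.0% of all promoters. The 7 other sets of letters were in 0 of the 7 windows, and in 0.338% (HNF4) to 9.22% (C/EBP) of all promoters. Sites that vary from these letters were not searched, and at such shares 0 of 7 says little. GC content ran from 42.8% at Foxa2 and 44.4% at Nr5a2 to 80.0% at Cebpb, around a median of 51.2% for all promoters.

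Levels are the authors' deposited values in CPM, read counts relative to library size and scaled by TMM factors, and were compared between groups for 1 gene at a time, never between genes. Changes are log2 folds ± SE from edgeR's quasi-likelihood test on the counts, fitted to all 16 libraries, and called means an adjusted p (Benjamini-Hochberg, over the 11162 genes) under 0.05. Library totals ran from 8745756 to 15762650 counts. Tspo, the check of the labels, was at 3.56 to 5.24 CPM in WT-CHOW and 7.73 to 9.33 CPM in WT-MCD. It was at 0.65 to 1.29 CPM in KO-CHOW 1 to 3 and at 1.02 to 1.67 CPM in KO-MCD 2 to 4. The library labelled KO-CHOW 4 had 4.402 CPM, within the WT-CHOW range and against its label. The library labelled KO-MCD 1 had 4.17 CPM, also within the WT-CHOW range. It lay above the other KO-MCD libraries but below every WT-MCD library, so its label is uncertain. An index of message length, the mean log2 level of 20 genes with long messages less that of 28 with short ones, set WT-CHOW 4 (-0.47), KO-CHOW 4 (-1.49) and KO-MCD 1 (-0.53) below the other libraries of their groups. The other chow libraries lay between -0.22 and 0.18 and the other MCD libraries between 1.22 and 1.70, so the index also moved with diet. Summed markers of hepatocytes (8 of 8 genes measured) were 180230 to 254320 CPM on chow and 103810 to 146720 CPM on MCD, so the tissue carried its label in every library. In bulk liver, fewer cells of a type and less RNA per cell cannot be told apart.

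On MCD the wild type had lower Onecut1, Foxa2, Cebpa and Foxa1 and higher Nr5a2, which makes 5 of the 9 genes called (1 higher, 4 lower), where 34.1% of all genes tested were called. The knockout had lower Cebpa and Cebpb and higher Nr5a2 and Prox1, 4 of 9 called (2 higher, 2 lower), where 40.4% of all genes were called. By direction, 4 of 9 were lower in the wild type and 2 of 9 in the knockout, where 15.9% and 18.5% of all genes were called lower. With 9 genes these shares are given as a description. Cebpa and Nr5a2 were called in both genotypes, 3 genes in the wild type alone, 2 in the knockout alone, and Hnf4a and Foxa3 in neither. The sign was the same in both genotypes for 7 of the 9. The median fold of the 9 was -0.27 (wild type) and -0.43 (knockout), beside medians of -0.00224 and 0.041 for all genes. The libraries of the groups did not overlap for 4 of the 9 in the wild type (all genes: 38.1%) and 2 of the 9 in the knockout (all genes: 31.5%). Without WT-CHOW 4, KO-CHOW 4 and KO-MCD 1 the wild type had 6 called (2 higher, 4 lower) and the knockout 5 (2 higher, 3 lower), while the share of all genes called went to 50.5% and 51.6%. Without scaling factors the median gene shifted by 0.53 (wild type) and 0.77 (knockout), and 4 (2 higher, 2 lower) and 3 (3 higher, 0 lower) of the 9 were called, beside 47.6% and 61.4% of all genes. Directions given here are thus relative to the median gene.

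**Figure D1:**
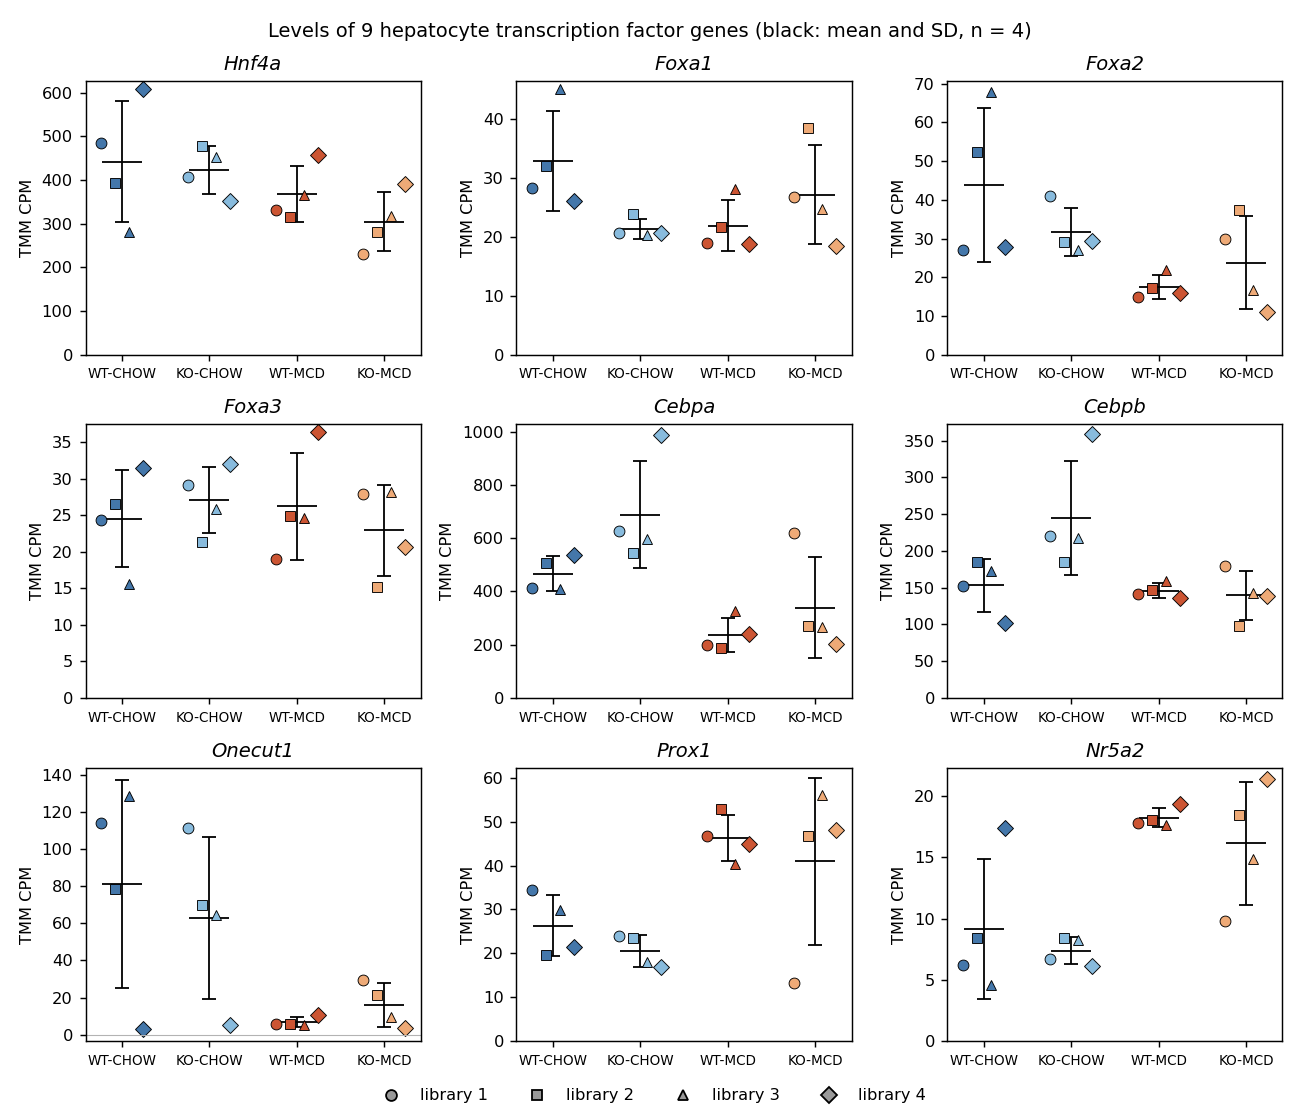
Level of each gene in TMM CPM (linear axis from 0) in the 16 libraries, by group, with the library number as the marker shape and the group mean and SD in black (n = 4). Onecut1 is at 64.4 to 128 CPM in chow libraries 1 to 3 and at 3.15 and 5.20 CPM in the chow libraries numbered 4.

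Hnf4a, the nuclear receptor at the head of the set, was not called on the diet in either genotype. Its levels in libraries 1 to 4 were 484, 394, 281 and 608 CPM in WT-CHOW and 331, 316, 367 and 457 CPM in WT-MCD. The WT-MCD values all lay inside the WT-CHOW range, and the fold was -0.27 ± 0.22 (edgeR, adjusted p = 0.356). In the knockout the levels were 408, 477, 452 and 352 CPM on chow and 230.4, 281, 317 and 391 CPM on MCD. Of the KO-MCD libraries 3 lay below every KO-CHOW library and the one numbered 4 lay among them, and the fold was -0.48 ± 0.22 (edgeR, adjusted p = 0.0964). DESeq2 put the adjusted p at 0.0492, and leaving out both chow libraries numbered 4, a choice made after seeing the data, gave -0.56 with an edgeR adjusted p of 0.0389. The lowest Hnf4a level of all 16 libraries was in the library labelled KO-MCD 1. Unscaled, the folds were 0.26 and 0.24, which is -0.27 and -0.52 relative to the median gene.

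Lists of described targets, here and below, were chosen with earlier results of these data known, so their counts are a description. Many genes described as HNF4A targets fell on the diet. Of 20 listed and tested, 11 were lower and 1 was higher on MCD in each genotype (of all genes, 15.9% were called lower and 18.2% higher in the wild type, and for the knockout 18.5% and 21.9%, the background for each list below), with median folds of -0.79 (wild type) and -0.89 (knockout). Apoc3, an inhibitor of lipoprotein lipase, went from 4765 ± 1537 to 668 ± 197 CPM in the wild type (log2 fold -2.85 ± 0.27, edgeR, adjusted p = 3.67e-06; SD, n = 4). Its knockout fold was -2.59 ± 0.27 (edgeR, adjusted p = 7.51e-06). Apoa4, an apolipoprotein of triglyceride-rich particles, went from 1197 ± 406 to 147 ± 79.9 CPM in the wild type, a fold of -3.03 ± 0.41 (edgeR, adjusted p = 7.55e-05), and by -3.04 ± 0.41 in the knockout (edgeR, adjusted p = 6.32e-05). Ttr, the thyroid hormone carrier transthyretin, had folds of -1.96 ± 0.26 and -2.03 ± 0.26. Apom, which carries sphingosine-1-phosphate, fell in the wild type by 1.91 on the log2 scale, and Serpina1, alpha-1-antitrypsin, fell in the knockout by 1.11. The gene that rose was Cyp7a1, the rate-limiting enzyme of bile acid synthesis. Unscaled, the counts were 3 higher and 7 lower in the wild type and 4 higher and 5 lower in the knockout. The summed hepatocyte markers were lower on MCD as well, but the sum shares genes with this list, Ttr and Serpina1 among them. Of the 8 markers, 5 were called lower and 0 higher in each genotype, while Apoa1, Tf and Cps1 were not called. The part of hepatocyte content in these counts was not tested.

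The 3 FOXA genes did not move as one. Foxa1 was at 28.4, 32.0, 45.0 and 26.02 CPM in WT-CHOW and at 18.95, 21.7, 28.0 and 18.8 CPM in WT-MCD. The groups overlapped through WT-CHOW 4 and WT-MCD 3, and Foxa1 fell by 0.60 ± 0.22 on the log2 scale (edgeR, adjusted p = 0.0458). That call was lost without any of WT-CHOW 2, WT-CHOW 3, WT-MCD 1, 2 or 4 (edgeR, adjusted p = 0.0724, 0.169, 0.108, 0.0922 and 0.122), and with upper quartile scaling (0.0657). It was also lost without KO-CHOW 1, 2 or 3 or KO-MCD 3, which enter only the shared spread (0.0533 to 0.0557). Without WT-CHOW 3 the fold was -0.40, and unscaled it was -0.06 (edgeR, adjusted p = 0.841). In the knockout Foxa1 was at 20.6, 23.8, 20.3 and 20.7 CPM on chow and at 26.7, 38.5, 24.7 and 18.5 CPM on MCD. Of the KO-MCD libraries 3 were above every KO-CHOW library and 1 was below all of them, with a fold of 0.33 ± 0.22 (edgeR, adjusted p = 0.235). Unscaled, that fold was 1.03 (adjusted p = 0.00059), or 0.27 relative to the median gene.

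Foxa2, which also serves bile acid and insulin-responsive genes, also fell in the wild type. It stood at 27.1, 52.4, 67.8 and 27.8 CPM in WT-CHOW and at 14.9, 17.1, 21.9 and 15.9 CPM in WT-MCD. Every WT-MCD library was below every WT-CHOW library, and the fold was -1.34 ± 0.35 (edgeR, adjusted p = 0.00879). Leaving out each library in turn kept the call, with folds from -1.52 to -1.04. It was lost with the message-length index in the model (-1.26, edgeR, adjusted p = 0.0617). In the knockout Foxa2 was at 40.9, 29.1, 27.1 and 29.5 CPM on chow and at 29.8, 37.5, 16.6 and 11.1 CPM on MCD. KO-MCD 1 and 2 lay within the chow range and KO-MCD 3 and 4 below it, and the fold of -0.43 ± 0.35 was not called (edgeR, adjusted p = 0.339). Foxa3, the member most active in the adult liver, was at 24.4, 26.5, 15.7 and 31.6 CPM in WT-CHOW and at 19.1, 24.9, 24.6 and 36.4 CPM in WT-MCD. Its KO-CHOW levels were 29.2, 21.4, 25.9 and 32.0 CPM and its KO-MCD levels 27.9, 15.2, 28.2 and 20.7 CPM. The 4 groups overlapped, and the diet folds were 0.08 ± 0.24 and -0.25 ± 0.24 (edgeR, adjusted p = 0.812 and 0.427). Bile duct cells also carry FOXA1 and FOXA2. The summed bile duct markers (8 of 9 listed in the table, with Krt7 not among them and none at 0 in all) were at 54.5 to 77.8 CPM on chow and 119.8 to 193 CPM on MCD, and their part in the FOXA values was not tested. Unscaled, the knockout folds of Foxa2 and Foxa3 were 0.26 and 0.49, against -0.50 and -0.27 relative to the median gene.

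Among genes described as FOXA targets, 8 of 9 listed were tested, and 1 was higher and 4 lower on MCD in each genotype, with medians of -0.78 and -0.82. Igfbp1, an insulin-repressed binding protein for insulin-like growth factors, was the one that rose, from 9.99 ± 3.82 to 66.3 ± 37.1 CPM in the wild type (log2 fold 2.73 ± 0.62, edgeR, adjusted p = 0.00342). In the knockout it went from 9.22 ± 8.07 to 66.8 ± 42.7 CPM, a fold of 2.86 ± 0.62 (edgeR, adjusted p = 0.00221). The lower members included Ttr, Serpina1 and Alb, which stand in other lists as well, so the lists are not separate evidence. Unscaled, the counts were 2 higher and 2 lower in the wild type and 2 higher and 1 lower in the knockout.

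Cebpa fell on MCD in both genotypes. It was at 414, 508, 408 and 535 CPM in WT-CHOW and at 197, 186, 326 and 240 CPM in WT-MCD. The groups did not overlap, and the fold was -0.99 ± 0.31 (edgeR, adjusted p = 0.0218). The call was lost without WT-MCD 1, 2 or 4 (edgeR, adjusted p = 0.059, 0.0696 and 0.0507), with folds of -0.98 to -0.88. In the knockout Cebpa was at 625, 543, 598 and 985 CPM on chow and at 618, 269.7, 266 and 203 CPM on MCD. The library labelled KO-MCD 1 was inside the KO-CHOW range of 543 to 985 CPM and the other 3 were below it. The fold was -1.03 ± 0.31 (edgeR, adjusted p = 0.0151), and -1.49 without KO-MCD 1. The call was lost without the library labelled KO-CHOW 4, without KO-MCD 2 or without KO-MCD 4 (edgeR, adjusted p = 0.0514, 0.0511 and 0.0522). It was also lost without all 4 libraries numbered 4, an alternative added after seeing the data (-0.62, adjusted p = 0.135). With the knockout groups fitted alone the call was lost too (-1.03, edgeR, adjusted p = 0.0582). After group means were removed, Cebpa ran against the message-length index over the 16 libraries (Pearson r = -0.92, Spearman rho = -0.81, a description in which 3 libraries lie far out). With the index in the model the folds were -0.09 and -0.20 (edgeR, adjusted p = 0.753 and 0.511). The index also differs between the diets, and its part in the change of Cebpa was not tested. Unscaled, the folds were -0.45 and -0.31 and neither was called (edgeR, adjusted p = 0.189 and 0.344).

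Cebpb was called in the knockout alone. In the wild type it was at 152, 185, 172 and 102 CPM on chow and at 142, 147, 159 and 136 CPM on MCD. The MCD values lay within the chow range, and the fold was -0.08 ± 0.23 (edgeR, adjusted p = 0.816). In the knockout it was at 220.3, 184, 217 and 359 CPM on chow and at 179.5, 98.5, 143 and 138 CPM on MCD. Every KO-MCD library was below every KO-CHOW library, and Cebpb fell by 0.82 ± 0.23 on the log2 scale (edgeR, adjusted p = 0.0115), a call kept when each library was left out in turn (-0.97 to -0.58). It was lost unscaled (-0.07, or -0.83 relative to the median gene, adjusted p = 0.816) and with the message-length index in the model (-0.37, adjusted p = 0.347). In edgeR's quasi-likelihood fit over all genes the difference between the diet effects was -0.74 ± 0.33 (adjusted p = 1), so a difference between genotypes is not shown. Macrophages also make C/EBP beta. The summed macrophage markers (9 of 10 in the table, Adgre1 not among them, none at 0 in all) were 302 to 552 CPM on chow and 406 to 798 CPM on MCD. Of the 9, 4 were higher and 2 lower in each genotype: Gpnmb (4.57 and 4.05), Trem2, Lyz2 and Csf1r rose, while the resident macrophage genes Clec4f (-1.51 and -1.68) and Marco (-1.64 and -2.81) fell. Their part in the Cebpb values was not tested.

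The ratio of Cebpb to Cebpa within a library is free of library scaling, and a fixed gene length cancels in its change between groups. An effect of message length that differs between libraries does not cancel. After group means were removed, Pearson r with the message-length index was -0.92 for Cebpa and -0.54 for Cebpb (16 libraries). The part of the index in the ratio was not tested. The ratio was 0.367, 0.364, 0.422 and 0.191 in WT-CHOW and 0.718, 0.788, 0.489 and 0.567 in WT-MCD. All WT-MCD ratios were above all WT-CHOW ratios, a rise of 0.97 on the log2 scale (exact two-sided permutation test, p = 0.0286, the smallest that 4 against 4 libraries can give). WT-CHOW 4 had the lowest ratio, and without it the rise was 0.71 (exact permutation p = 0.0571, the smallest possible with 3 against 4). In the knockout the ratio was 0.352, 0.340, 0.363 and 0.364 on chow and 0.290, 0.365, 0.537 and 0.682 on MCD. KO-MCD 3 and 4 were above the chow libraries, KO-MCD 2 only just and KO-MCD 1 below, and the difference of 0.32 was not past the threshold (exact permutation p = 0.314). Without the library labelled KO-MCD 1 it was 0.53 (exact permutation p = 0.0571, the smallest possible), without the 3 libraries that stood apart 0.54 (exact permutation p = 0.1), and without KO-MCD 4 it was 0.12 (exact permutation p = 0.629). Whether the ratio changed differently in the 2 genotypes was not tested.

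**Figure D2:**
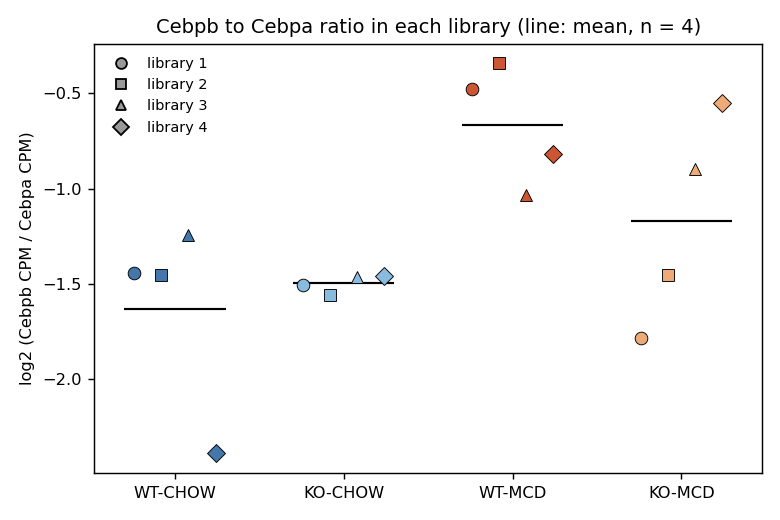
Log2 ratio of Cebpb to Cebpa (CPM over CPM) in each of the 16 libraries by group, with the group mean as a line (n = 4). The WT-MCD libraries lie above all WT-CHOW libraries, while the KO-MCD libraries spread on both sides of the tightly placed KO-CHOW libraries.

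Genes described as C/EBP alpha targets were lower in 5 of 10 cases in the wild type, with 0 higher, and in the knockout 5 were lower and 1 higher. Median folds were -0.71 and -0.82. Alb, serum albumin, went from 125320 ± 10151 to 71726 ± 13693 CPM in the wild type (log2 fold -0.81 ± 0.18, edgeR, adjusted p = 0.00275) and changed by -1.05 ± 0.18 in the knockout (adjusted p = 0.000389). Arg1, the last enzyme of the urea cycle, fell by 0.89 and 1.17 on the log2 scale. The knockout member that rose was Hamp, the iron hormone hepcidin (0.88 ± 0.30, edgeR, adjusted p = 0.0293). Neither the wild-type count of 0 nor the rise of Hamp held when libraries were left out (the 3 that stood apart, the 2 with high Tspo, both chow libraries numbered 4, or all 4 numbered 4). In each of these cases 1 was higher and 5 lower in the wild type, and 0 higher and 4 lower in the knockout. Unscaled, 2 were higher and 1 was lower in either genotype.

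Of 10 acute-phase genes described under C/EBP beta, 1 was higher and 5 were lower in each genotype. A2m, alpha-2-macroglobulin, a main acute-phase protein of the rat, rose from 13.2 ± 5.09 to 167 ± 39.95 CPM in the wild type (log2 fold 3.66 ± 0.40, edgeR, adjusted p = 1.3e-05). In the knockout A2m rose from 8.88 ± 4.94 to 149 ± 45.9 CPM (4.05 ± 0.41, edgeR, adjusted p = 6.33e-06). Saa4, a constitutive serum amyloid A, went the other way, from 1412 ± 121 to 542 ± 60.5 CPM (-1.39 ± 0.21) in the wild type and by -1.43 ± 0.21 in the knockout. Crp, C-reactive protein, had folds of -1.22 ± 0.31 and -1.28 ± 0.31, and the fibrinogen chains Fga, Fgb and Fgg were lower in both genotypes. Unscaled, 1 was higher and 1 lower in either genotype.

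Onecut1 had the largest fold of the 9 genes and the widest spread. Its levels were 114, 78.5, 128 and 3.15 CPM in WT-CHOW, from 1237, 846, 901 and 33 counts. In WT-MCD they were 5.79, 5.55, 5.18 and 10.8 CPM. WT-CHOW 1 to 3 were high, whereas WT-CHOW 4 was below every WT-MCD library, so the groups overlapped through that library alone. The fold was -3.57 ± 0.92 (edgeR, adjusted p = 0.00774), and it stayed called with each library left out in turn (-3.97 to -3.26). With the message-length index in the model it was -3.67 and not called (edgeR, adjusted p = 0.0518). In the knockout Onecut1 was at 111, 69.7, 64.4 and 5.20 CPM on chow and at 29.5, 21.4, 9.49 and 3.62 CPM on MCD. KO-CHOW 4 again fell among the MCD values while KO-CHOW 1 to 3 were above all of them. The fold of -1.98 ± 0.86 was not called (edgeR, adjusted p = 0.0749). It was called without WT-CHOW 4 (through the shared spread, 0.0246), without the library labelled KO-CHOW 4 (-2.37, 0.0266) or without the library labelled KO-MCD 1 (-2.46, 0.0475). Without those 3 libraries together it was -2.84 (edgeR, adjusted p = 0.0012).

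Among the 9 genes, Onecut1 alone was low in both chow libraries numbered 4. The higher of these 2 libraries was 12.0-fold under the lowest of the other 6 chow libraries (with a prior count of 2), and this gap ranked 1 among the 11162 genes tested for being lower. These 2 libraries were chosen after seeing Onecut1, so its rank and its place in the counts below were largely set by that choice. Of all genes, 1902 were lower in both of these libraries than in the other 6, 66 by over 2-fold, 6 by over 4-fold and 1, Onecut1, by over 8-fold. In the other direction 2238 were higher in both, 102 by over 2-fold, 11 by over 4-fold and 2 by over 8-fold. No other member lay below all 6 in both, and Foxa3 lay above all 6 in both. The median within-group coefficient of variation of Onecut1 was 69.4%, higher than that of 98.1% of genes tested, while the other 8 members ran from 19.7% (Hnf4a) to 32.6% (Foxa2) around a median of 22.2% for all genes. The labels give no time of day, date or batch by which the libraries numbered 4 differ; their descriptions number them after the 12 others, and what set them apart was not tested.

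**Figure D3:**
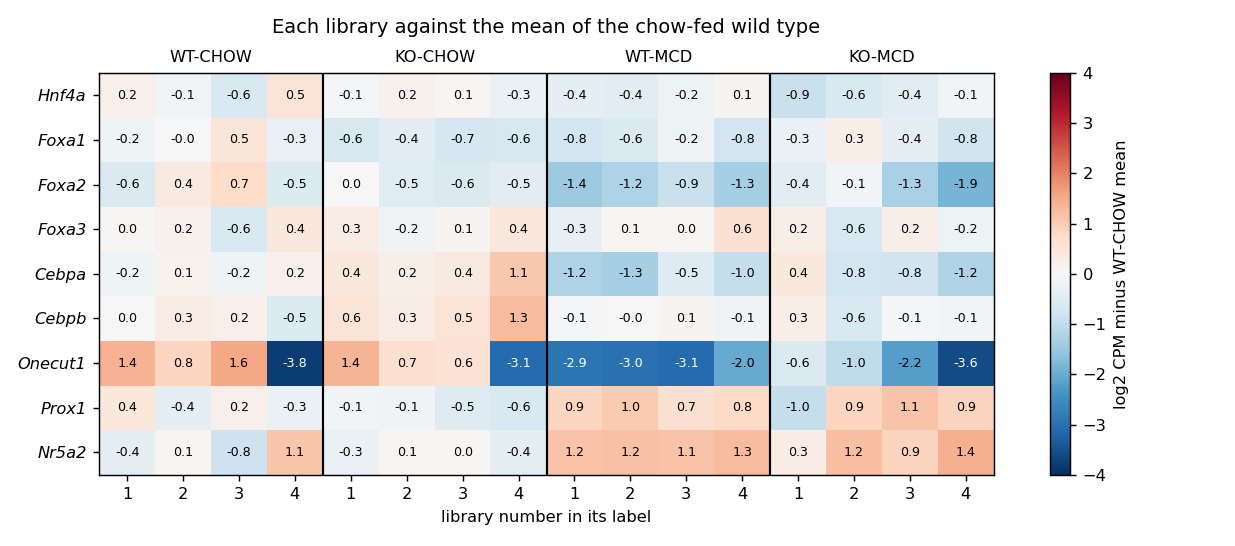
Log2 CPM of each gene in each library minus its mean over the 4 WT-CHOW libraries, with libraries 1 to 4 of each group side by side (blue lower, red higher). Onecut1 is deep blue in both chow libraries numbered 4 as well as on MCD, and the KO-MCD library numbered 1 lacks the red of Prox1 seen in the other MCD libraries.

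Prox1 was called in the knockout, where it rose on MCD with 1 library apart. In the wild type it was at 34.5, 19.7, 29.8 and 21.4 CPM on chow and at 46.7, 52.9, 40.3 and 44.9 CPM on MCD. The groups did not overlap, yet the fold of 0.80 ± 0.32 was not past the threshold (edgeR, adjusted p = 0.0616). It was called without the library labelled KO-MCD 1, which only enters the shared spread (adjusted p = 0.00395), with the wild-type groups fitted alone (0.00969), and with DESeq2 (0.044). In the knockout it was at 23.9, 23.5, 18.04 and 16.8 CPM on chow and at 13.2, 46.7, 56.0 and 48.0 CPM on MCD. The library labelled KO-MCD 1 was the lowest of all 16 and the other 3 were well above every chow library. The fold was 0.98 ± 0.32 (edgeR, adjusted p = 0.0233). That call was lost without KO-CHOW 3 or 4 or KO-MCD 2, 3 or 4 (edgeR, adjusted p = 0.0554 to 0.0793) and with limma on the deposited values (0.0647). With the knockout groups fitted alone it was lost as well (0.97, edgeR, adjusted p = 0.07475). The same held without both chow libraries numbered 4 or all 4 numbered 4 (edgeR, adjusted p = 0.053 and 0.1255). Prox1 followed the message-length index over libraries after group means were removed (Pearson r = 0.83, Spearman rho = 0.67, 16 libraries). With the index in the model the knockout fold turned to -0.18 (edgeR, adjusted p = 0.709), and the part of the index was not tested. Lymphatic endothelium also makes PROX1. Its summed markers (3 of 4 in the table, Mmrn1 not among them, none at 0 in all) were 3.07 to 14.2 CPM on chow and 10.7 to 23.6 CPM on MCD, and their part was not tested.

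Nr5a2 rose on MCD in both genotypes. It was at 6.19, 8.45, 4.56 and 17.3 CPM in WT-CHOW and at 17.8, 18.1, 17.7 and 19.3 CPM in WT-MCD. The WT-MCD libraries were close together and all above WT-CHOW, though WT-CHOW 4 came near them. The fold was 0.98 ± 0.31 (edgeR, adjusted p = 0.0243), and 1.48 without WT-CHOW 4. The call was lost without WT-CHOW 1, 2 or 3 or WT-MCD 4 (edgeR, adjusted p = 0.0795, 0.0581, 0.0703 and 0.0534). In the knockout it was at 6.74, 8.40, 8.23 and 6.14 CPM on chow and at 9.81, 18.4, 14.9 and 21.4 CPM on MCD. All KO-MCD libraries were above all KO-CHOW libraries, with KO-MCD 1 the lowest of them. The fold was 1.12 ± 0.32 (edgeR, adjusted p = 0.0116) and was called with each library left out in turn (0.95 to 1.29). Pancreatic acinar cells also make NR5A2. Of their 8 listed markers Prss1 and Pnlip were at 0 in every library, and the sums were 3.56 to 7.64 CPM on chow and 2.61 to 5.84 CPM on MCD. The sum hides opposite moves, called in both genotypes. Cela1, its largest part, fell (-0.96 and -1.33), while Rbpjl (1.12 and 1.40) and Amy2a3 (6.39 and 3.27) rose. Group means were low, at 0.545 to 1.45 CPM for Rbpjl and 0 to 0.914 CPM for Amy2a3. The part of acinar cells in the Nr5a2 values was not tested.

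Genes described as NR5A2 targets divided. Of 7 tested, 2 were higher and 1 lower on MCD in each genotype, with and without scaling. The knockout had 0 higher and 2 lower without the 4 libraries numbered 4, 1 and 1 without the 2 libraries with high Tspo, and 0 and 0 with the index in the model. The wild type had 3 higher and 2 lower without the 4 libraries numbered 4, and 1 and 1 with the index. Cyp7a1 rose from 60.1 ± 31.7 to 288 ± 68.1 CPM in the wild type (log2 fold 2.25 ± 0.41, edgeR, adjusted p = 0.000783) and from 80.0 ± 28.6 to 228 ± 140 CPM in the knockout (1.49 ± 0.40, edgeR, adjusted p = 0.00815). Scarb1, the HDL receptor SR-BI, rose by 0.49 ± 0.18 and 0.47 ± 0.18 (edgeR, adjusted p = 0.0435 and 0.0452). Gls2, the liver glutaminase, fell from 198 ± 138 to 48.6 ± 10.5 CPM in the wild type (-2.03 ± 0.41, edgeR, adjusted p = 0.00162) and by 1.67 on the log2 scale in the knockout.

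**Figure D4:**
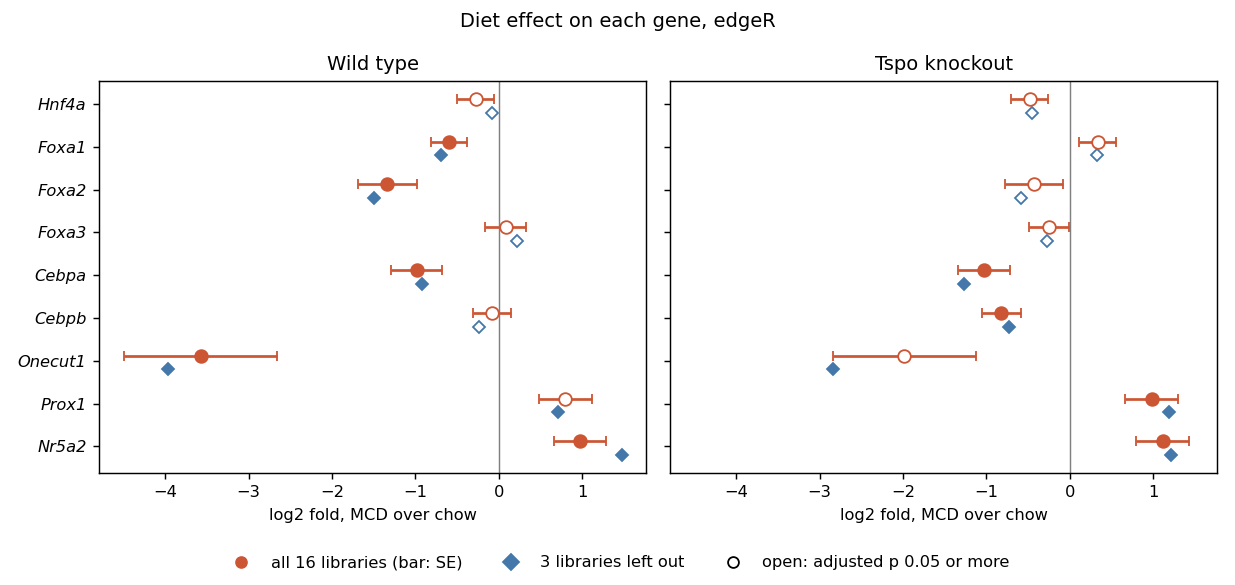
Log2 fold of MCD over chow for each gene in the wild type (left) and the knockout (right), from edgeR. Circles with SE bars are the fits to 16 libraries, diamonds those without WT-CHOW 4, KO-CHOW 4 and KO-MCD 1, and filled symbols were called. Onecut1 lies farthest left in both panels, at -3.57 and -1.98.

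Genotype comparisons called none of the 9 genes. On chow 0 of 9 were called, where 1 of 11162 genes, 0.00896%, was. Tspo itself was not called in that fit (-1.23 ± 0.49, edgeR, adjusted p = 0.46). It was called without the 2 knockout libraries with high Tspo (-2.04, edgeR, adjusted p = 0.0108). Those 2 were left out for their Tspo level, so this call was largely set by that choice. Without the 3 libraries that stood apart, 516 of 11220 genes were called, 4.6%, with 0 members among them. Cebpb differed by 0.68 ± 0.23 (unadjusted p = 0.0101, edgeR adjusted p = 0.45) and Foxa1 by -0.62 ± 0.22 (unadjusted p = 0.0126, adjusted p = 0.459), the 2 members with an unadjusted p under 0.05. Of all 11162 genes in that fit, 1153 were under this unadjusted level. The groups did not overlap for Foxa1, at 20.3 to 23.8 CPM in KO-CHOW below 26.02 to 45.0 CPM in WT-CHOW, nor for Cebpa, at 543 to 985 CPM above 408 to 535 CPM. Such gaps were seen for 4.29% of all genes on chow. Without the 3 libraries that stood apart the Cebpb difference was 0.28 (edgeR, adjusted p = 0.257), and without the library labelled KO-CHOW 4 alone 0.44. The Cebpa difference was 0.56 ± 0.31 (edgeR, adjusted p = 0.497), and 0.34 without the knockout libraries that had high Tspo. On MCD 0 of 9 were called (0% of all genes, and 81 of 11162 at an unadjusted p under 0.05, with 0 members among them). The groups overlapped for all 9 (0.815% of all genes did not). The widest of these folds, 1.22 ± 0.86 for Onecut1, has a standard error that leaves room for no change and for a large one.

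The difference of the diet effects between genotypes was called for 0 of 9 (0% of all genes; 330 of 11162 at an unadjusted p under 0.05). Of the members 2, Foxa1 and Cebpb, were under that unadjusted level. The difference for Foxa1 was 0.93 ± 0.31 (edgeR, adjusted p = 1), made of folds of -0.60 (wild type) and 0.33 (knockout). Without the 3 libraries that stood apart it was 1.02 (edgeR, adjusted p = 0.163). Foxa2 differed by 0.91 ± 0.49 and Onecut1 by 1.59 ± 1.19. A genotype difference in the diet effect is thus not shown for any of the 9.

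Other liver transcription factors moved in both directions on the diet. Of 29 listed, 28 were tested, and 8 were called in the wild type (4 higher, 4 lower, median -0.14) and 9 in the knockout (3 higher, 6 lower, median -0.20). Without the 3 libraries that stood apart the counts were 16 (6 higher, 10 lower) and 15 (6 higher, 9 lower), in a setting where 50.5% and 51.6% of all genes were called, against 34.1% and 40.4% before. Unscaled they were 8 higher and 1 lower, and 12 higher and 0 lower. Ppara, the receptor that drives fatty acid oxidation, rose from 8.56 ± 1.92 to 36.3 ± 5.84 CPM in the wild type (log2 fold 2.08 ± 0.26, edgeR, adjusted p = 4.46e-05) and from 6.51 ± 1.60 to 37.0 ± 12.7 CPM in the knockout (2.49 ± 0.27, adjusted p = 1.02e-05). Foxo1, the insulin-restrained activator of gluconeogenic genes, rose by 1.95 ± 0.33 and 2.42 ± 0.34. Nr1i3, the xenobiotic receptor CAR, rose by 2.12 ± 0.57 and 1.78 ± 0.57. Its knockout groups overlapped, at 6.33 to 48.96 CPM on chow and 39.7 to 75.2 CPM on MCD. Its wild-type groups did not, at 11.3 to 21.7 CPM and 38.8 to 123 CPM. Nr3c1, the glucocorticoid receptor, fell by 0.74 and 1.00 on the log2 scale, Nr1h4, the bile acid receptor FXR, by 1.06 and 1.09, and Tcf7l2, an effector of Wnt signalling, by 0.96 and 0.91. Hhex, a homeobox gene of early liver, fell by 1.17 in the wild type (edgeR, adjusted p = 0.00408), while its knockout fold was -0.48 (adjusted p = 0.16).

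Within groups, some members varied together over the 16 libraries, which share their depth and scaling and include the 3 that stood apart. After group means were removed, Foxa1 and Foxa2 had Pearson r = 0.86, Hnf4a and Nr5a2 0.80, Cebpa and Prox1 -0.85, and Hnf4a and Foxa2 -0.74. Among 7976 genes with at least 5 CPM, those most like each member were Nsun2 (0.93) and Clcn3 (0.89) for Hnf4a, Osgin1 (0.87) for Foxa2 and, after Foxa2, Foxa1 (0.81), and Zfp496 (0.82) and Lcmt2 (0.81) for Foxa3. For Cebpa they were Rnd2 (0.95) and Serpina3m (0.94), for Cebpb Eif1b and Slc22a18 (both 0.85), and for Onecut1 G6pc3 and Slc35b1 (both 0.93). Prox1 was most like Trim25 and Mink1 (both 0.95), and Nr5a2 most like Ptprj (0.98) and Itch (0.97). These are descriptions of 16 libraries, with no test.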

How the data were processed

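Per the labels' protocols, mRNA was enriched from total RNA and sequenced with a stranded kit. One deposited table holds expected counts per gene made by the authors; RSEM 1.2.15, Bowtie2 2.1.0 and the build rn6 appear in the submitters' processing notes. The other deposited table holds a normalised signal in TMM-scaled CPM: each of its 202017 values above 0 is a whole multiple of 1 constant per library (tolerance 1e-04). The sources used here give no annotation or strand setting. Expected counts were rounded and tested with edgeR 4.0.16 in R 4.3.3 (filterByExpr, TMM, robust quasi-likelihood, 1 term per group, 12 residual degrees of freedom). DESeq2 1.42.0 and limma 3.58.1 served as alternatives. The fit was also run on simulated data, and the outcome is not given here. Reads are not independent molecules. Same-numbered libraries of different groups correlated from -0.381 to 0.511, and differently numbered ones from -0.44 to 0.534. The 0.511 was between both chow libraries numbered 4. These ranges do not settle whether numbers pair libraries, and the main fit used no pairing.

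Members and lists were chosen with earlier results of these data known. Named were the 9 members, up to 6 called genes of the other factors and up to 4 of each target list by smallest p, and the 2 genes most like each member; 1 gene so chosen is not reported here. Promoters are from RefSeq (GRCr8).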

Additional observations from a re-analysis of the deposited data

Results flagged for a closer look

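In groups of 4 libraries, 3 of 36 gene and group pairs had 1 library far from the other 3 by Dixon's criterion, which chance gives for about 1 in 20 groups. Foxa1 in KO-CHOW 2 was at 23.8 CPM, against 20.3 to 20.7 CPM in the other 3. Cebpa in the library labelled KO-MCD 1 was at 618 CPM, against 203 to 269.7 CPM. Onecut1 in WT-MCD 4 was at 10.8 CPM, against 5.18 to 5.79 CPM. The chow libraries numbered 4 did not pass it for Onecut1, since the other 3 values spread widely.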

How the results depend on the processing

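Of 1296 values of the 9 genes under alternatives, 1179 kept direction and side of the threshold, 55 changed sign without being called, 44 lost a call, 17 gained one and 1 reversed. The reversal was Prox1 in the knockout with the message-length index as a covariate (-0.18). With that index 0 members were called in either genotype (0 and 0), beside 25.6% and 20.9% of all genes; the index differs between diets. With only the groups compared, 2 were called in the knockout, beside 31.4% of all genes. In the wild type that setting gained Prox1 (edgeR, adjusted p = 0.00969) and lost no call, beside 38.1% of all genes. Leaving out each library in turn gave 2 to 6 called in the wild type (fewest without WT-MCD 4, and 3 without WT-CHOW 2 or 3 or WT-MCD 1 or 2) and 2 to 5 in the knockout (2 without KO-MCD 2 or 4). Over all genes those fits called 2832 to 4566 (wild type) and 3347 to 5343 (knockout), of 11231 to 11290 tested. Without the 3 libraries that stood apart, 16 (wild type) and 15 (knockout) other factors were called, and the wild-type Cebpb to Cebpa rise was 0.71 (exact permutation p = 0.0571). Leaving out single libraries put that rise at 0.71 to 1.10, all at p = 0.0571, the smallest exact p at 3 against 4. The cause was not tested. The replicate block kept 5 and 4 members called, beside 32.7% and 38% of all genes. The lowest Onecut1 level rests on 33 counts.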

Other observations

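Genes of fetal liver and progenitor cells were also listed. Of 12 listed, 9 are in the table and 7 were tested; 4 were higher and 1 lower in the wild type, 5 higher and 1 lower in the knockout, with medians of 1.33 and 1.25. H19, an imprinted RNA of fetal liver, rose from 2.98 ± 2.13 to 11.1 ± 4.57 CPM in the wild type (log2 fold 1.93 ± 0.53, edgeR, adjusted p = 0.011; SD, n = 4) and by 2.31 ± 0.55 in the knockout (edgeR, adjusted p = 0.00395). Gpc3, a fetal surface proteoglycan, rose by 1.55 ± 0.43 and 1.25 ± 0.43, at low group means of 0.609 to 1.83 CPM. Afp, alpha-fetoprotein, had group means of 18.2 to 20.9 CPM and was not called. Its folds were 0.15 ± 0.20 and 0.12 ± 0.20 (edgeR, adjusted p = 0.58 and 0.655). Cd24 and Prom1, which bile duct cells also make, rose by 1.33 and 1.84 in the wild type and by 1.71 and 1.73 in the knockout. Group means of Prom1 were low, at 0.896 to 3.38 CPM. Igf2, the fetal growth factor, went from 2.65 ± 2.36 to 0.482 ± 0.51 CPM in the wild type (-2.43 ± 0.63, edgeR, adjusted p = 0.00806). Without the 3 libraries that stood apart the knockout had 3 higher and 0 lower, and the wild type 4 and 1; unscaled, the counts were 6 and 1 in the wild type and 6 and 0 in the knockout. With the message-length index in the model they were 1 and 1 in the wild type and 1 and 0 in the knockout. Of 7 bile duct markers tested, 3 rose in the wild type (Epcam, Spp1 and Sctr) and 4 in the knockout (these and Slc4a2), with Epcam at 1.35 ± 0.17 and 1.65 ± 0.17, while Krt19 was at 0.17 and 0.98 (edgeR, adjusted p = 0.799 and 0.116), and their part in these counts was not tested.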
